A study of Mus musculus with 4 samples.

Results

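Non-arterial mature endothelium of the *Tbx1* lineage was described in single-cell RNA-sequencing libraries of E9.5 mouse embryos. A cell was taken as a member when it had at least 3000 genes detected, at most 10% mitochondrial UMIs, at least 4 of 7 endothelial genes (*Pecam1*, *Cdh5*, *Tek*, *Emcn*, *Cldn5*, *Esam*, *Kdr*) with a UMI, no UMI of the epithelial gene *Epcam* or of the progenitor gene *Etv2*, and at most 2 of 6 arterial genes (*Gja4*, *Gja5*, *Hey1*, *Dll4*, *Sox17*, *Unc5b*). A UMI (unique molecular identifier) stands for 1 captured RNA molecule. This rule found 1116 cells among 35228 that met the limits on genes and mitochondrial UMIs. Members were thus chosen by the measured UMIs of these 15 genes, of all genes together and of mitochondrial genes, so their levels are given as a description and without a test.

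The study asked how loss of *Kmt2d*, which encodes an H3K4 methyltransferase acting at enhancers, affects cells of the *Tbx1* lineage in embryos that are already heterozygous for *Tbx1*. The conditional heterozygote (cHet) was Tbx1Cre/+; Kmt2d F/+; GFP F/+, and the conditional knockout (cKO) was Tbx1Cre/+; Kmt2d F/F; GFP F/+. The Cre is a knock-in at *Tbx1*, so that embryos of both genotypes carried 1 inactivated copy of that gene, and no library with 2 intact copies was analysed here. Cells came from the pharyngeal region, beginning at the first pharyngeal arch, and from the heart of embryos that the labels give as outbred Swiss Webster (the study's methods give a mixed C57BL/6 and Swiss Webster background for its mice), and were sorted alive for GFP, so that only cells with a history of *Tbx1*-Cre activity were sequenced. Each genotype had 2 libraries. In Rep1, a library held 4 pooled embryos and was made with the Next GEM chemistry, while in Rep2 it held 3 pooled embryos and was made with the GEM-X chemistry. Embryos within a pool cannot be separated, so n is 2 libraries per genotype and chemistry cannot be told apart from any other difference between the replicates.

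Endothelial cells line vessels and, as endocardium, the inner surface of the heart. In the embryo, arterial identity is set up by VEGF and Notch signalling and by SOXF factors such as SOX17, while *Nr2f2*, which encodes the nuclear receptor COUP-TFII, is known for maintaining venous identity and restraining the arterial programme. Veins and plexus also carry *Nrp2*, *Ephb4* and *Aplnr*, which encode receptors for semaphorins and VEGF-C, for ephrin-B2 and for apelin. Lymphatic endothelium arises from veins under *Prox1*, and hemogenic endothelium is marked by *Runx1*.

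The libraries held 9307 to 37093 barcodes with 179454146 to 234726019 UMIs. cHet Rep1 stood apart, since only 6238 of its 37093 barcodes had 3000 genes and an accepted mitochondrial share. For this library the study's own cell total is lower than even these passing barcodes, whereas for the other libraries it equals the barcodes in the files, so the barcodes used here for cHet Rep1 are not the study's set of cells. The libraries of Rep1 shared 87 barcode sequences with each other, those of Rep2 shared 71, and no barcode was shared between replicates. Values of the 4 libraries in order are those of cHet Rep1 and cKO Rep1, then cHet Rep2 and cKO Rep2. Members numbered 253 in cHet Rep1, 174 in cKO Rep1, 292 in cHet Rep2 and 397 in cKO Rep2. Their median depth was 20445, 27290, 21061 and 16637 UMIs, and their summed counts ran from 5056150 to 6688382 UMIs per library. Doublet calls covered 14.2% of the members of cHet Rep1, 8.05% in cKO Rep1, 6.16% in cHet Rep2 and 5.54% in cKO Rep2.

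The endothelial limit had few cells close to it and the arterial limit had more. There were 34 members with exactly 4 of the 7 endothelial genes, and 10 of these were called doublets, while 64 cells with 3 of the genes fell outside. At the arterial limit, 221 members had 2 of the 6 arterial genes and 126 excluded cells had 3. A further 48 endothelial cells were excluded for *Epcam* and 491 for *Etv2*. Most members lay well inside the endothelial limit, as all 7 endothelial genes were detected in 68.4% of them in cHet Rep1, 81.6% in cKO Rep1, 89.4% in cHet Rep2 and 84.4% in cKO Rep2.

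The markers given for these cells are described here. *Emcn*, *Cdh5* and *Cldn5* were rule genes, so their high levels follow from the choice of members and do not check the label. *Plvap*, which encodes the diaphragm protein of endothelial fenestrae and caveolae, was not part of the rule. Levels are given as counts per 1000000 UMIs (CPM) of the summed counts. In the members *Plvap* was at 235 CPM in cHet Rep1, 219 in cKO Rep1, 400.3 in cHet Rep2 and 391 in cKO Rep2, against 2.47 to 4.56 in cells with none of the 7 endothelial genes. *Emcn*, which encodes the sialomucin endomucin, was at 749.8, 758, 1160.1 and 1161 CPM in the same order, and *Cdh5*, which encodes VE-cadherin, was at 276, 263, 505 and 531. Levels in CPM were higher in Rep2 than in Rep1 for most of these genes in both genotypes, whereas *Cldn5*, which encodes a tight junction claudin, was at 327 and 377 in Rep1 and at 297 and 257 in Rep2. The 26 endothelial genes outside the rule marked endothelium, but not its non-arterial part. They summed to 4415, 4503, 6682 and 6896 CPM in the members in the same order, and to 264 to 388.6 in cells without endothelial genes. In arterial-like cells, which only the arterial limit excluded, the sums were higher, at 5494, 5446, 7260 and 7651. *Plvap* was also higher there, at 324, 288, 553 and 537. *Tie1*, a receptor partner of TEK, was at 57.2 to 87.3 CPM in the members and at most 0.162 in cells without endothelial genes, and the ETS factor gene *Erg* was at 88.3 to 160.1 against 0.395 to 0.645.

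The genes with the largest excess over non-endothelial cells, taking the smallest of the 4 library folds with 5 CPM added to each level, were led by rule genes. Outside the rule they were *Clec1b*, *Cd34*, *Flt1*, *Plvap*, *Icam2* and *Gimap6*. *Clec1b*, which encodes the C-type lectin CLEC-2 that is best known from platelets, was at 224, 274, 217 and 265 CPM in the 4 libraries in order and was detected in 80.5% to 94.8% of members, against at most 0.215 CPM in cells without endothelial genes. The 6 platelet and megakaryocyte genes, *Pf4* among them, summed to 2.24 to 6.72 CPM in the members and to 0.33 to 0.573 in cells without endothelial genes.

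**Figure D1:**
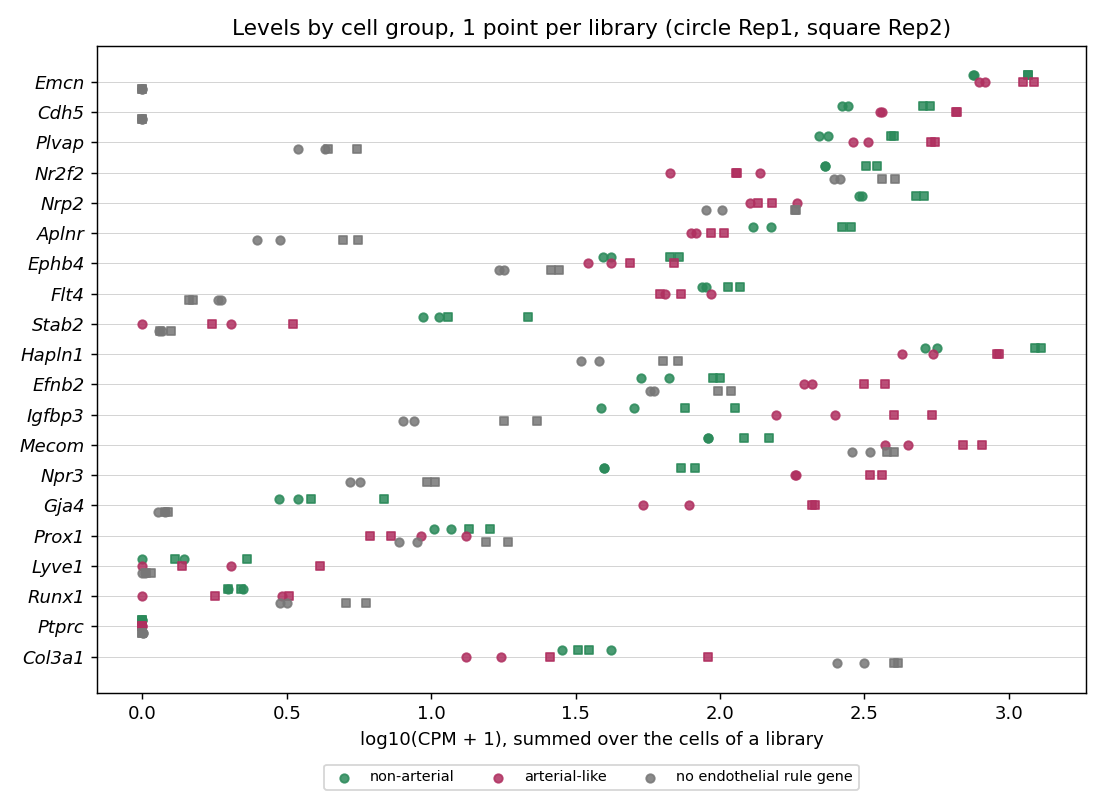
Levels of 20 genes in non-arterial members, arterial-like cells and cells with none of the 7 endothelial rule genes. The x axis is log10 of CPM plus 1 in the summed counts of a library, each point is 1 library, circles are Rep1 and squares Rep2. *Nrp2* and *Aplnr* lay higher in the members than in both other groups in every library, *Nr2f2* lay at the level of non-endothelial cells, and *Mecom*, *Igfbp3* and *Npr3* lay lower than in arterial-like cells.

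Some venous genes were at high levels in the members. *Nr2f2* was at 229.9 CPM in cHet Rep1, 229.8 in cKO Rep1, 319 in cHet Rep2 and 349 in cKO Rep2, and in arterial-like endothelium (cells that met the other limits and had 3 or more arterial genes) at 66.0, 137, 112 and 114. The gene was not restricted to endothelium, since cells without endothelial genes held 248 to 402 CPM. *Nrp2* was at 309, 301, 509 and 478 in the members against 126 to 184 in arterial-like cells. *Aplnr* was at 129, 149, 264 and 284 in the members, 78.4 to 102 in arterial-like cells and only 1.51 to 4.59 in cells without endothelial genes. *Ephb4* separated the endothelial groups less, with 38.5 to 71.3 in the members and 34 to 68.3 in arterial-like cells. These contrasts follow from how the groups were drawn, and no test was made of them.

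*Aplnr*, *Nr2f2* and *Nrp2* were each detected in most members, but not every gene of the venous list was. In the 247 members of cHet Rep1 with fewer than 3 of the endocardial markers given below, *Vwf* was detected in 6 and *Nt5e* in 3. *Aplnr* was detected in 84.98% of members in cHet Rep1, 93.1% in cKO Rep1, 95.2% in cHet Rep2 and 90.7% in cKO Rep2, while 2.77% to 6.12% of the cells without endothelial genes had a UMI of it. The median depth of those cells, 17370 to 22987 UMIs, was close to that of the members. *Nr2f2* and *Nrp2* were detected together in 84.6%, 95.4%, 92.8% and 87.7% of members, but in cells without endothelial genes *Nr2f2* was detected in 89.4% to 93.5% and *Nrp2* in 46.5% to 63.4%. After each member was thinned to 5000 UMIs, so that depth no longer differed, the shares with both genes were 44.7%, 51.1%, 59.9% and 62.5%. At equal depth the lower detection therefore fell to the Rep1 libraries, in both genotypes.

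*Stab2*, which encodes a scavenger receptor of venous and sinusoidal endothelium, was found in a minority. It was detected in 14, 17, 31 and 43 members of the 4 libraries in the same order, or 5.53%, 9.77%, 10.6% and 10.8%. In cells without endothelial genes the share was 0.245% to 0.510%. Those cells were chosen for having no UMI of the endothelial rule genes, so their share does not measure the background of endothelial free RNA. The part of free RNA in the detection of *Stab2* was not tested. *Prox1* was detected in 36, 36, 60 and 48 members, or 14.2%, 20.7%, 20.5% and 12.1%, but 10.0% to 17.7% of the cells without endothelial genes also held a UMI of it. *Lyve1*, a later lymphatic marker, was detected in 0, 2, 5 and 2 members, and a count of 0 among the 253 members of cHet Rep1 allows a share of up to 1.19% of cells with a UMI (3 counts of the total), which sets no limit on cells that express the gene. *Runx1* or *Gfi1*, which mark hemogenic endothelium, was detected in 6, 5, 5 and 8 members. No UMI of the pan-leukocyte gene *Ptprc* was found in any library's members, which allows up to 0.593 CPM in the smallest sum of counts.

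**Figure D2:**
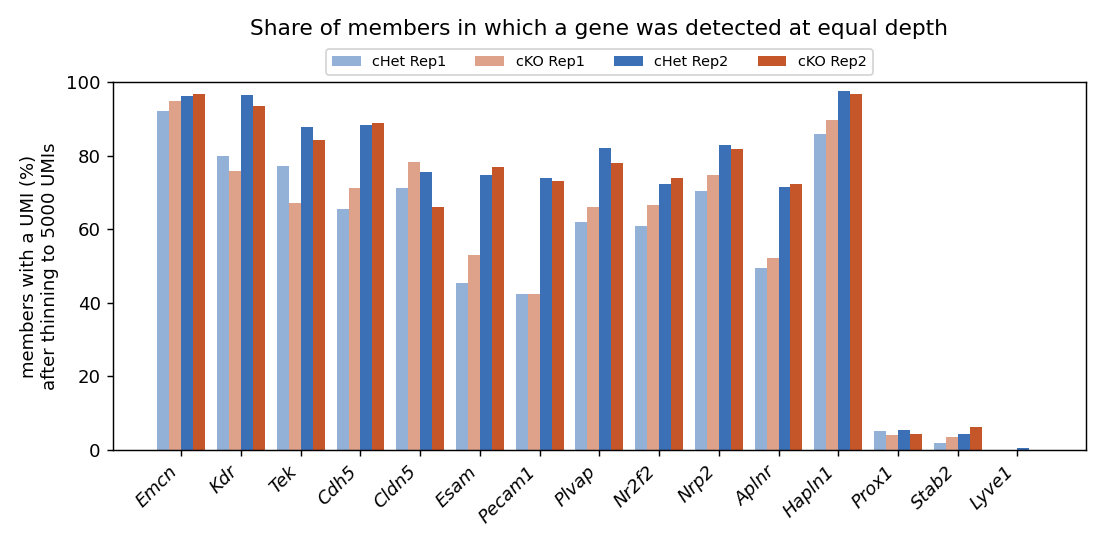
Share of members with at least 1 UMI of a gene after each member was thinned to 5000 UMIs (y axis, %), in the 4 libraries (bars; blue cHet, orange cKO, pale Rep1, dark Rep2). *Nr2f2*, *Nrp2*, *Aplnr* and *Hapln1* were found in most members at this depth, apart from 49.4% for *Aplnr* in cHet Rep1, while *Prox1*, *Stab2* and *Lyve1* stayed below 7% in each library.

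The 8 genes outside the rule with the largest difference of 1 sign from arterial-like cells in every library were all lower in the members. They were *Tmem100*, *Nedd9*, *Vegfc*, *Mecom*, *Npr3*, *Sat1*, *Igfbp3* and *Pmepa1*. *Tmem100*, which encodes a membrane protein downstream of ALK1 and BMP signalling, was at 0.396 to 2.77 CPM in the members and at 27.8 to 101 in arterial-like cells. *Vegfc*, the ligand of the receptor encoded by *Flt4*, was at 19.98 to 40.1 against 123 to 334, and the receptor gene itself was at 85.8 to 116 in the members. *Mecom*, which encodes a zinc-finger factor of arterial endothelium, was at 89.6 to 147 against 372 to 803.

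The members also varied among themselves along the arterial axis. *Sox17* alone accounted for most of the arterial genes detected, being present in 60.9% to 71.2% of members, and a further 73, 51, 59 and 102 members of the 4 libraries had none of the 6 genes. In cHet Rep2, the summed level of the 11 venous genes was 1984 CPM in members with no arterial gene, 1777 in those with 1 and 1489 in those with 2. The 16 arterial genes outside the rule ran the other way there, from 694 over 756 to 1137. In cKO Rep2 the venous sum went from 1985 to 1449 and the arterial sum from 759.5 to 1254 between members with no and with 2 arterial genes. Rep1 had the same order at both ends, with venous sums of 1206 and 879 in cHet and 1294 and 1087 in cKO, although the cKO value with 1 arterial gene, 1044, was the lowest of its library.

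Endocardial character was counted with 6 markers outside the rule, *Nfatc1*, *Npr3*, *Adgrg6*, *Nrg1*, *Hapln1* and *Tbx20*. At 5000 UMIs per cell, at least 3 of these were detected in 6 of 253 members in cHet Rep1 (2.37%), 5 of 174 in cKO Rep1 (2.87%), 15 of 292 in cHet Rep2 (5.14%) and 29 of 397 in cKO Rep2 (7.30%). The mean was 3.75% ± 1.95 in cHet and 5.09% ± 3.13 in cKO (SD, n = 2 libraries each). The share was higher in cKO by 0.502 percentage points in Rep1 and by 2.17 in Rep2. The two-sided exact permutation test of the mean difference of 1.33 points gave p = 0.667, with a spread that includes the difference between the replicates, and this design cannot go below p = 0.333. Without thinning the shares were 18.2%, 24.1%, 35.6% and 27.0%, and the order of the genotypes then turned in Rep2, where cKO cells were shallower. With at least 2 markers at 5000 UMIs per cell, the cKO share was lower by 4.64 percentage points in Rep1 and higher by 0.455 in Rep2, a mean difference of -2.094, and with 3 markers and cKO Rep2 left out the difference was -0.881.

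*Gata4*, which encodes a cardiac transcription factor and was not one of the 6 markers, was not distributed alike in the libraries. It was at 107 CPM in the 6 cells of cHet Rep1 with 3 endocardial markers and at 2.13 in the other members, but only 1 of the 6 cells held it. In cKO Rep1 it was at 0 in the 5 such cells and at 2.83 in the others. In Rep2 it was at 186 against 0.348 in cHet and at 339.7 against 3.41 in cKO. The cells with 3 markers thus had the higher level in 3 libraries and the lower in cKO Rep1. *Tbx20*, which encodes a T-box factor of the heart, and *Hapln1*, which encodes a link protein of the hyaluronan matrix, helped to choose these cells, so their values are a description. *Tbx20* was at 513 CPM in the 29 cells of cKO Rep2 and at 1.62 in the other members, and no UMI of it was found in any member of cKO Rep1. *Hapln1* was at 2444 against 1188 in cKO Rep2 and at 518 against 565 in cKO Rep1, and 97.2% to 99.7% of all members carried it.

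The share of passing cells that were members was 4.06% in cHet Rep1 (Wilson 95% interval 3.59 to 4.57), 2.61% in cKO Rep1 (2.26 to 3.02), 3.00% in cHet Rep2 (2.68 to 3.35) and 3.15% in cKO Rep2 (2.86 to 3.47). These intervals cover counting error only. The cKO share was lower than the cHet share by 1.44 percentage points in Rep1 and higher by 0.157 in Rep2, so the replicates went in opposite directions. The mean was 3.53% ± 0.749 in cHet and 2.88% ± 0.383 in cKO (SD, n = 2 libraries each; two-sided exact permutation test, p = 0.667). With a limit of 1000 genes in place of 3000, which brought 608 members in cHet Rep1, the shares of Rep1 were 2.74% and 2.35% and those of Rep2 were 2.98% and 3.12%. Among all endothelial cells passing the rule before the *Etv2* and arterial limits, members made up 56.0%, 59.8%, 54.4% and 58.5%.

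The genotypes were then compared across genes. Counts were summed over the members of each library and tested with edgeR's quasi-likelihood test with the replicate as a block, since the first principal component, which separated the replicates, held 79.4% of the variance. In summed counts, fewer cells with a given RNA and less RNA per cell cannot be told apart. *Kmt2d* was at 20.3 CPM in cHet Rep1, 14.6 in cKO Rep1, 19.6 in cHet Rep2 and 20.2 in cKO Rep2. The groups overlapped, with a log2 fold change (cKO against cHet) of -0.19 ± 0.17 (SE; edgeR adjusted p = 0.909). The sources used here do not say which exons are floxed and the counts come from the 3′ end of the transcript, so this level does not check the deletion. *Tbx1* was at 38.8, 34, 28.1 and 28.7, lower than the 61.1 to 79.7 in cells without endothelial genes (log2 fold change -0.08 ± 0.12, adjusted p = 0.95). With a library left out, *Kmt2d* ran from -0.438 to 0.014 (without cHet Rep1) and *Tbx1* from -0.488 (without cHet Rep2) to 0.383 (without cHet Rep1). Fits with a library left out had no replicate block, here and below, so their values also hold the difference between the replicates.

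No gene passed the threshold in the members. Of 12025 genes tested, 0 (0.0%) had an edgeR adjusted p below 0.05, and 639 (5.31%) had an unadjusted p below 0.05, 340 (2.83%) of them higher and 299 (2.49%) lower in cKO. DESeq2 called 1 gene, *Dach1*. Leaving out members called as doublets gave 20 called genes, and leaving out members with more than 5% mitochondrial UMIs gave 18.

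The 12 genes with the smallest p among those of 1 sign in both replicates are given as not called. *Dach1*, which encodes a transcriptional cofactor known in coronary artery growth, lies at chr14:97786853-98169765 (GRCm38, minus strand). It was at 99.2 CPM in cHet Rep1, 174 in cKO Rep1, 130.4 in cHet Rep2 and 203 in cKO Rep2. Both cKO values lay above both cHet values, with a log2 fold change of 0.72 ± 0.07 (SE, n = 2 per genotype; edgeR adjusted p = 0.117). It was detected in 135, 113, 157 and 237 members, and the highest cell held at most 6.53% of its UMIs in any library. At 5000 UMIs per cell it was detected in 26.5%, 36.2%, 32.2% and 40.6% of members. It was more abundant still in cells without endothelial genes, at 361 to 568 CPM. *Dach1* passed the threshold in 8 of 17 alternative analyses and kept its sign in all 17.

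*Plcl1*, which encodes a phospholipase C-like protein without catalytic activity, was at 12.2, 22.7, 21.5 and 55.5 CPM in the 4 libraries in order (log2 fold change 1.19 ± 0.15, edgeR adjusted p = 0.148). The members lay far below arterial-like cells for this gene, where it was at 118 to 169. *Gpr183*, which encodes a receptor for oxysterols, was at 33.1, 65.5, 46.4 and 74.5 (0.82 ± 0.10, adjusted p = 0.148), and the groups did not overlap. It was an endothelial gene in these data, with 14.4 to 47.0 in arterial-like cells and 0.272 to 0.611 in cells without endothelial genes. *Pcdh17*, which encodes a protocadherin, was at 192, 245, 289 and 401 (0.42 ± 0.06, adjusted p = 0.236), and *Zfp704*, which encodes a zinc-finger protein, was at 45.5, 62.3, 80.6 and 119 (0.52 ± 0.08, adjusted p = 0.236). Without cKO Rep2, in a fit without the block, the log2 fold changes were 0.655 for *Plcl1*, 0.244 for *Pcdh17* and 0.214 for *Zfp704*. For the last 2 genes the values of Rep1 and Rep2 overlapped between the genotypes and the higher cKO level appeared within each replicate.

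Among the genes with lower values, *Nrxn3*, which encodes an adhesion protein best known from synapses, was at 179 CPM in cHet Rep1, 137 in cKO Rep1, 250.2 in cHet Rep2 and 178 in cKO Rep2 (log2 fold change -0.44 ± 0.07, edgeR adjusted p = 0.236). *Cpq*, which encodes a secreted carboxypeptidase, was at 62.3, 44.5, 82.6 and 42.5 (-0.74 ± 0.12, adjusted p = 0.236). Neither gene overlapped between the genotypes. *Apoe*, which encodes apolipoprotein E, was at 386, 296, 220.3 and 166 (-0.40 ± 0.06, adjusted p = 0.236) and overlapped across replicates, cKO Rep1 being higher than cHet Rep2. The log2 fold change of *Apoe* turned to 0.333 without cHet Rep1 and to 0.087 without cKO Rep2, in fits without the block. These 3 genes were detected in 41.3% to 94.1% of the members of a library.

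For the other 4 of the 12, few cells carried the RNA. *Dcc*, which encodes a netrin receptor, had 97 UMIs in cHet Rep1, 253 in cKO Rep1, 29 in cHet Rep2 and 62 in cKO Rep2, and 82.6% of those of cKO Rep1 lay in 1 cell. Its log2 fold change turned from 1.39 to -0.514 without cKO Rep1, in a fit without the block, while Rep2 alone gave 0.92. *Wnt4* had 21, 4, 67 and 15 UMIs, from 3 to 7 cells of a library, with 33.3% to 85.7% in the highest cell. *Nlgn1*, which encodes a synaptic adhesion protein, had 17, 64, 5 and 23 UMIs from 4 to 10 cells. *Tmem132c* had 155, 59, 152 and 87 UMIs from 21 to 46 cells, and cells without endothelial genes held 236 to 388 CPM of it. Across all genes tested, both cKO libraries lay above both cHet libraries for 538 (4.47%) and below for 723 (6.01%). Of the 12 genes 4 lay above and 4 below, which follows in part from their choice by small p and equal sign, so nothing is read from that count.

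**Figure D3:**
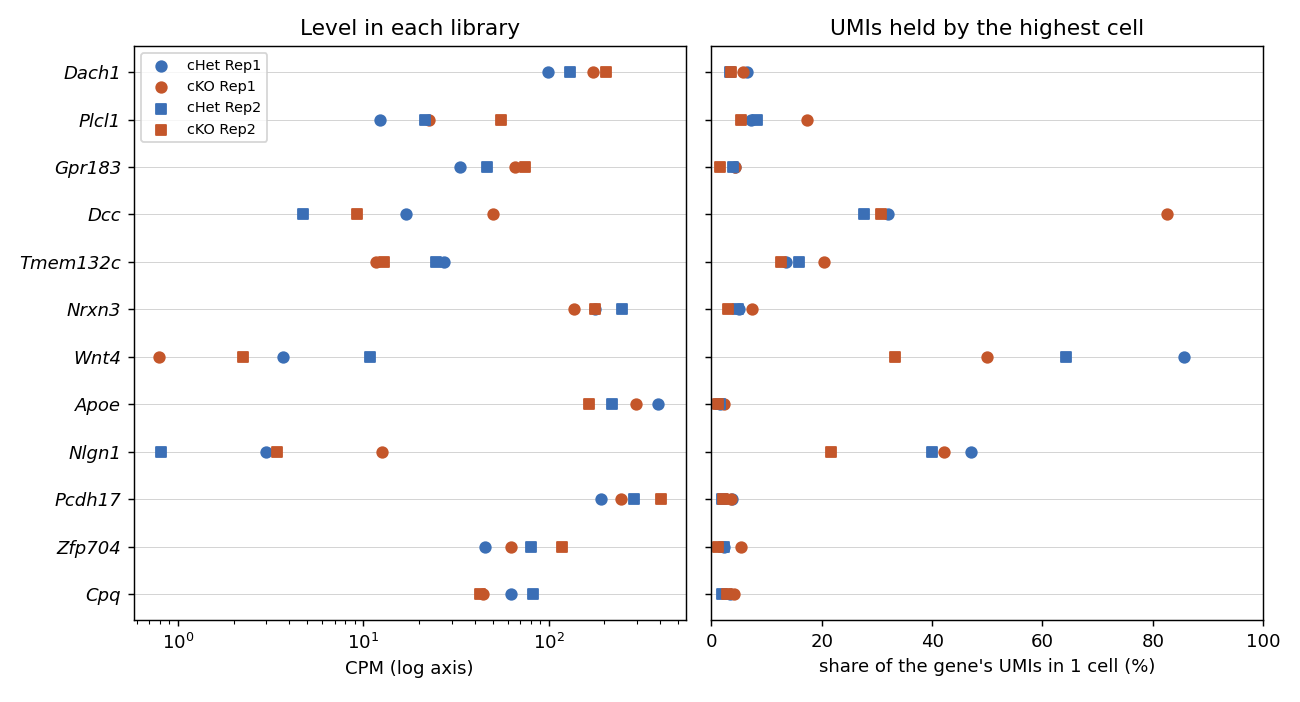
The 12 genes with the smallest p among those of 1 sign in both replicates, none of them past the threshold. The left panel gives the level in each library in CPM on a log axis, and the right panel the percentage of a gene's UMIs held by its highest cell (blue cHet, orange cKO, circles Rep1, squares Rep2). *Dach1*, *Gpr183*, *Pcdh17*, *Zfp704*, *Nrxn3*, *Apoe* and *Cpq* were spread over many cells, with at most 7.38% in 1 cell, whereas *Dcc*, *Wnt4* and *Nlgn1* reached 82.6%, 85.7% and 47.1%.

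**Figure D4:**
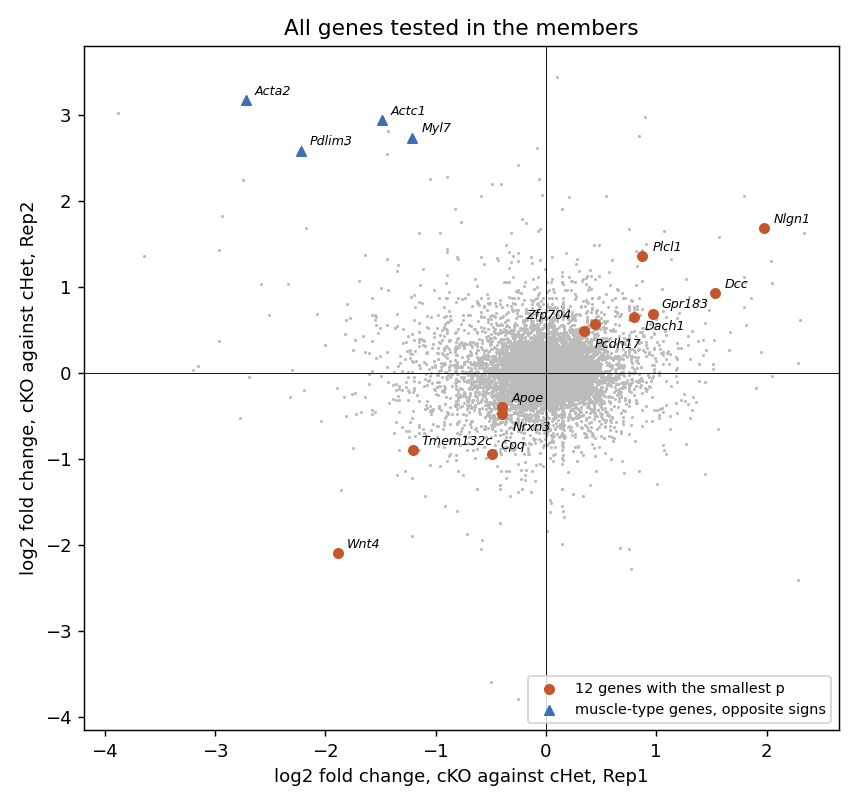
Log2 fold change (cKO against cHet) of all 12025 genes tested in the members, with Rep1 on the x axis and Rep2 on the y axis, each from 1 library per genotype. The 12 genes of smallest p (circles) lie in the quadrants of equal sign by their choice, and *Actc1*, *Acta2*, *Pdlim3* and *Myl7* (triangles) lie at negative values in Rep1 and positive values in Rep2.

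Gene lists were described by counts, since no member of any list passed the threshold, and they were read against all genes tested, of which 26.2% were higher and 25.7% lower in cKO in both replicates with a median log2 fold change of 0.00. Of 10 venous genes tested, 3 were higher in both replicates, 3 were lower in both and 4 had opposite signs (median -0.05). *Stab2* had the largest positive value, with 8.40, 9.69, 10.4 and 20.6 CPM in the 4 libraries in order (log2 fold change 0.67 ± 0.22, edgeR adjusted p = 0.853). Of 13 arterial genes outside the rule, 6 were higher in both replicates and 3 lower (median 0.11). *Igfbp3*, which encodes an IGF-binding protein, had the largest value there, with 37.6, 49.2, 74.4 and 112 CPM (0.51 ± 0.09, adjusted p = 0.295). Without cKO Rep2, in a fit without the block, the log2 fold change of *Igfbp3* was 0.055 and that of *Stab2* was 0.24. *Igfbp3* lay higher in arterial-like cells, at 155, 249, 398 and 539.

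Sprouting and tip-cell genes had the most members at a small p among the endothelial lists. Of 15 tested, 7 had an unadjusted p below 0.05 and all 7 were higher in cKO in both replicates. Of all genes tested, 2.83% were higher at that p, and the list's median log2 fold change was 0.13. The list was chosen with earlier results of these data known, and equal signs follow in part from a small p. The count is therefore a description. In arterial-like cells the list's summed level was also higher in cKO, at 1863, 2172, 2521 and 2707 CPM in the 4 libraries in order. The 7 were *Apln*, *Kcne3*, *Nid2*, *Adm*, *Cd34*, *Trp53i11* and *Igfbp3*. Without cKO Rep2, in a fit without the block, *Nid2* turned to a log2 fold change of -0.15. *Adm*, which encodes the peptide adrenomedullin, was at 2.62 CPM in cHet Rep1, 6.13 in cKO Rep1, 4.08 in cHet Rep2 and 10.8 in cKO Rep2 (1.33 ± 0.27, adjusted p = 0.417). *Apln*, which encodes the ligand of the receptor encoded by *Aplnr*, was at 13.8, 19.4, 41.1 and 51.3. *Kcne3*, which encodes a potassium channel subunit, was at 37.6, 43.3, 49.0 and 76.6. In the same list, *Angpt2*, which encodes a TIE2 ligand, had a log2 fold change of -0.31 ± 0.23 (edgeR adjusted p = 0.905). It turned to 0.124 without cHet Rep1, in a fit without the block, and was -0.42 in Rep1 and -0.18 in Rep2.

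No gene of the signalling lists was called. Across all genes tested, 2.83% had an unadjusted p below 0.05 with higher and 2.49% with lower values in cKO. Among 16 VEGF and TIE genes, 1 had an unadjusted p below 0.05, in the positive direction, and the median was -0.01. Among 16 Notch genes the only such gene was *Notch3*, at 13.6, 8.31, 16.3 and 12.3 CPM in the 4 libraries in order (log2 fold change -0.54 ± 0.18, edgeR adjusted p = 0.853). *Notch3* was also in the list of mural cell genes, and cells without endothelial genes held more of it, at 34.8, 34.3, 60.0 and 56.7 CPM. Of 20 BMP and TGF-beta genes, 3 had such a p with higher values and 1 with lower values. The latter was the receptor gene *Bmpr1a*, at 40.4, 25.9, 30.0 and 24.8 (-0.46 ± 0.13, adjusted p = 0.782). Its log2 fold change was -0.031 without cHet Rep1 and -0.862 without cHet Rep2, in fits without the block, and -0.645 in Rep1 and -0.262 in Rep2. Cells without endothelial genes held 149 to 192 CPM of *Bmpr1a*. Of 16 shear stress genes, 2 were higher at that p and 1 lower, the last being the flow-induced factor gene *Klf2* at 147, 120.2, 265 and 247 (-0.18 ± 0.07, adjusted p = 0.893). The value of *Klf2* turned to 0.113 without cKO Rep1 and to 0.068 without cHet Rep2, in fits without the block. It was -0.30 in Rep1 and -0.09 in Rep2. Medians of these lists lay within 0.06 of 0.

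No gene of the structural lists was called, and their counts at a small p stand beside 2.83% higher and 2.49% lower of all genes tested. Of 20 junction and barrier genes, 1 had an unadjusted p below 0.05 with higher values and 2 with lower values (median -0.03), the first being the caveolin gene *Cav1*. Of 21 basement membrane and matrix genes, 1 did, *Nid2*, at 26.4, 31.6, 57.0 and 73.3 CPM in the 4 libraries in order (log2 fold change 0.33 ± 0.10, edgeR adjusted p = 0.782). Its value turned to -0.15 without cKO Rep2, in a fit without the block, and was 0.25 in Rep1 and 0.37 in Rep2. None of 20 glycolysis genes and none of 16 genes of H3K4 methylation and demethylation had such a p. *Kmt2c*, the paralog of *Kmt2d*, was at 75.9, 74.8, 119 and 107, and *Kdm6a*, which encodes a demethylase in the KMT2C/D complex, was at 80.3, 82.3, 137 and 138. The 21 guidance genes had 3 at such a p in each direction, where 2.83% and 2.49% of all genes tested did. Cell cycle and oxidative phosphorylation lists had a share of 1 sign away from that of all genes, with small medians. Of 43 S phase genes, 20 (46.5%) were lower and 3 (6.98%) higher in cKO in both replicates (median -0.05), while of 54 G2/M genes 24 (44.4%) were higher and 2 (3.70%) lower (median 0.05). Of 78 nuclear genes of oxidative phosphorylation, 41 (52.6%) were higher and 11 (14.1%) lower (median 0.03), and of 77 ribosomal protein genes 18 were higher and 20 lower (median 0.01).

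**Figure D5:**
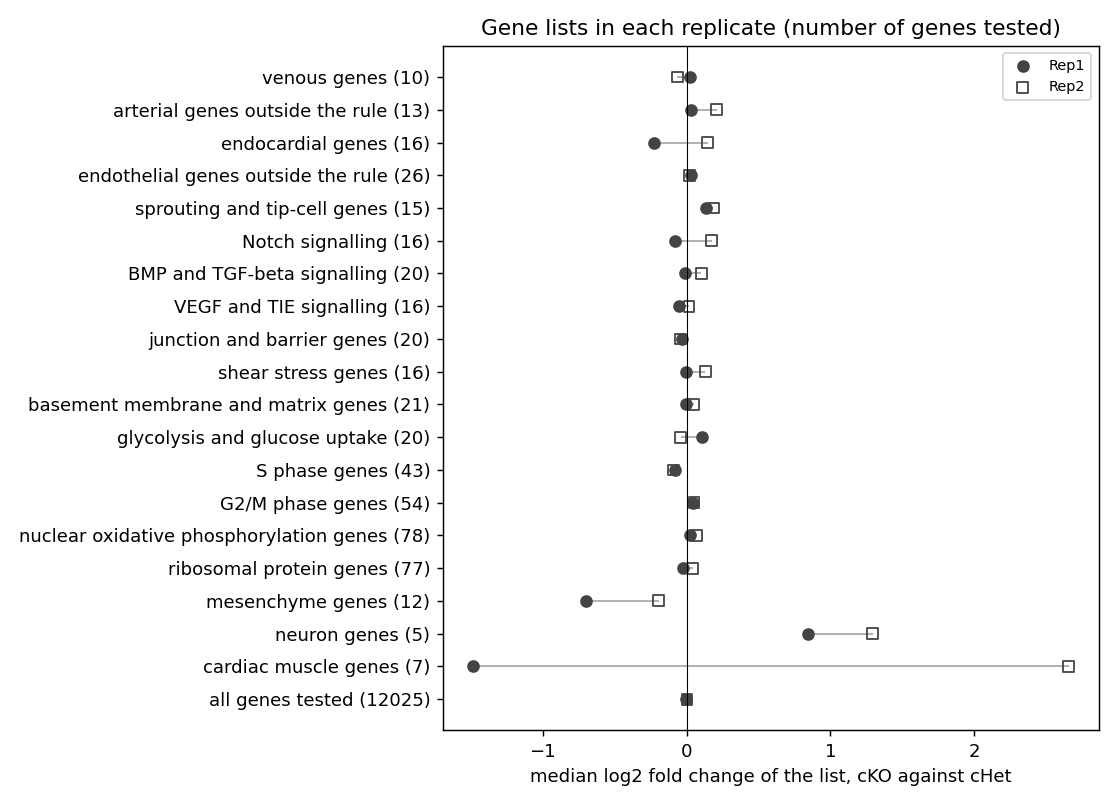
Median log2 fold change of gene lists in the members, all genes tested included (x axis, cKO against cHet), separately for Rep1 (filled circles) and Rep2 (open squares), with the number of genes tested in parentheses. The endothelial and signalling lists plotted lay between -0.23 and 0.21 in both replicates, whereas mesenchyme genes lay below 0, neuron genes above 0, and cardiac muscle genes at -1.49 in Rep1 and 2.66 in Rep2.

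Endocardial genes were divided. Of 16 tested, 3 had an unadjusted p below 0.05 with higher values and 3 with lower values in cKO (median 0.14, with -0.23 in Rep1 and 0.15 in Rep2). Of all genes tested, 2.83% were higher and 2.49% lower at that p. *Adgrg6*, which encodes an adhesion receptor of endocardium, had 14 UMIs in cHet Rep1, 47 in cKO Rep1, 56 in cHet Rep2 and 105 in cKO Rep2 (log2 fold change 1.15 ± 0.28, edgeR adjusted p = 0.618), and 10.5% to 42.9% of them lay in 1 cell. Its log2 fold change was 0.62 without cHet Rep1 and 2.111 without cHet Rep2. *Cdh11*, a cadherin gene of mesenchyme and cushion cells, had the largest negative value (-0.40 ± 0.12, adjusted p = 0.782). It turned to 0.061 without cHet Rep1, in a fit without the block, and was -0.62 in Rep1 and -0.17 in Rep2. *Cdh11* was at 50.5 to 80.1 CPM in the members and at 541 to 936 in cells without endothelial genes. The 16 genes of endothelial-mesenchymal transition had 1 such gene in each direction, *Cdh2* at 0.39 ± 0.10 (adjusted p = 0.694) and *Twist1* at -0.47 ± 0.14 (adjusted p = 0.799). With a library left out, *Cdh2* ran from 0.132 (without cHet Rep1) to 0.695 (without cHet Rep2) and *Twist1* from -0.716 (without cHet Rep2) to -0.282 (without cHet Rep1). *Twist1* was at 35.8 to 62.8 CPM in the members and at 271 to 406 in cells without endothelial genes.

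Genes of other cell types moved with the genotype or with a library in these summed counts. The 12 mesenchyme genes summed to 236 CPM in cHet Rep1, 141 in cKO Rep1, 192 in cHet Rep2 and 158 in cKO Rep2, against 1437 to 1934 in cells without endothelial genes. Of these 12, 7 were lower in both replicates and none higher, and 6 had an unadjusted p below 0.05. Of all genes tested, 25.7% were lower in both replicates, and at that p 2.83% were higher and 2.49% lower. Neuron genes summed to 40, 69, 32 and 62, and 4 of 5 tested had such a p with higher values. *Tubb3*, which encodes a neuronal tubulin, had 19, 74, 14 and 41 UMIs, of which up to 75.6% lay in 1 cell. Cardiac muscle genes summed to 41, 11, 26 and 150, and all 7 tested had opposite signs in the replicates. *Actc1*, the cardiac actin gene, was at 4.37, 1.39, 5.88 and 47.4 CPM. In cKO Rep2, 1 cell held 91.2% of its UMIs, and without that cell the level was 4.21 CPM. The 8 macrophage genes summed to 9.80 to 13.4 CPM, with 4 or 5 of them at 0 in each library, and 10 red blood cell genes summed to 2.61 CPM in cHet Rep2 and to 9.69 to 16 CPM in the other libraries.

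Members with markers of another cell type (at least 4 mesenchyme genes, or at least 3 cardiac muscle or neuron genes) were 56 of 253 in cHet Rep1, 21 of 174 in cKO Rep1, 26 of 292 in cHet Rep2 and 27 of 397 in cKO Rep2, or 22.1%, 12.1%, 8.90% and 6.80%. Without them, 34 genes of 11478 tested passed the threshold, 23 higher and 11 lower in cKO, and 8 of the 12 genes above were among the 34. *Dach1* was then at a log2 fold change of 0.81 (edgeR adjusted p = 8.811e-08), against 0.72 with all members, while *Dcc* and *Tmem132c* turned sign, to -1.18 and 0.23. More of each gene's spread was shared across genes in that fit, with prior degrees of freedom of 39.9 against 6.76 with all members. This alternative was chosen after the data had been seen. Sex-linked genes also differed between the pools. *Eif2s3y*, on the Y chromosome, was at 9.27, 14.6, 17.3 and 29.6 CPM in the members and at 15.6, 20.1, 21.2 and 27.1 in cells without endothelial genes, so that cKO pools had the higher level in both cell groups. The part of pool sex and of other cell types in the values of the other genes was not tested beyond these figures.

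The last comparisons asked whether the members' response differed from that of other cells of the same libraries. Against arterial-like cells (47, 17, 124 and 164 cells in the 4 libraries), 49 of 12000 genes (0.408%) differed at an edgeR adjusted p below 0.05, 35 with the more positive and 14 with the more negative response in the members. The spread between genes was estimated there with infinite prior degrees of freedom, which means that all genes of a given level shared 1 spread. With a gene-wise quasi-dispersion, chosen after the data had been seen, 7 genes (0.0583%) differed. Against cells without endothelial genes (4656 to 9791 per library), 168 of 18118 genes (0.927%) differed by the default estimate, again with infinite prior degrees of freedom. None (0.0%) differed by the gene-wise estimate, where 896 genes had an unadjusted p below 0.05.

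*Dach1* was among the genes that differed by the default estimate in both comparisons. Its log2 response in the members was more positive than in arterial-like cells by 0.82 ± 0.14 (SE; edgeR adjusted p = 6.443e-06) and more positive than in cells without endothelial genes by 0.68 ± 0.06 (adjusted p = 1.02e-27). In the latter cells the gene was at 368, 361, 540.4 and 568 CPM in the 4 libraries in order. *Plcl1* also differed by the default estimate from both, by 0.80 ± 0.20 (adjusted p = 0.0144) and 1.26 ± 0.18 (adjusted p = 4.567e-09). *Gpr183* differed from neither (adjusted p = 1.00 and 0.447). *Apoe* had a more negative response in the members than in arterial-like cells by -0.70 ± 0.11 (edgeR adjusted p = 1.116e-07), where it was at 365, 562, 287 and 292 CPM. None of these differences was called with the gene-wise estimate.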

How the data were processed

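The authors sorted live GFP+ cells from pools of E9.5 embryos, sequenced 10x Genomics 3′ libraries and made the deposited UMI counts with Cell Ranger (version 7.0.1 in the file headers of Rep1 and 8.0.1 in those of Rep2, with the mm10 build per the labels). The deposited matrices hold raw counts per gene and barcode, without ambient RNA removal, and the smallest barcode had 500 UMIs. Free RNA was therefore not removed from the counts.

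Members were found by the rule given above. Doublets were scored with Scrublet in scanpy 1.11.5. Its automatic threshold marked 0.0150% to 1.74% of cells, so the expected share (0.8% per 1000 barcodes in Rep1, 0.4% in Rep2) set the limit, and doublets were left out only as an alternative. Raw UMIs were summed over the members of each library and tested with edgeR 4.0.16 (R 4.3.3; TMM scaling, filterByExpr, quasi-likelihood F test with its default quasi-dispersion, Benjamini-Hochberg adjustment, threshold 0.05). Fold changes of the fit use TMM-scaled counts and printed levels are counts per 1000000 UMIs without that scaling. Shares were compared with exact permutation tests (scipy 1.17.1). Differences in response were tested as the interaction of cell group and genotype with the library as a block. The fits were tested on simulated data first.

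Replicate was a block because the numbers mark a different chemistry and pool size. Deviations of libraries with the same number correlated at r = 0.767. Groups came from the genotype labels. Since nothing marks single embryos within a pool, the unit of each test is the pool. The edgeR p-values rest on a spread that is in part shared across genes. The prior degrees of freedom were 6.76 in the main fit and infinite in the default tests of a difference in response. These p-values therefore do not measure the spread between pools of a single gene alone. Named genes were *Kmt2d*, *Tbx1*, the genes called, the 12 of smallest p with 1 sign in both replicates, the largest positive and negative value per list (at least 100 UMIs, 1 sign in both replicates), the 12 genes highest over non-endothelial cells, the 8 that differed most from arterial-like cells and up to 6 genes per test of a difference in response. Other genes were named to give the members of a counted set. The members and the gene lists were chosen with earlier results of these data known. Alternatives covered scaling, DESeq2 1.42.0, low-count filter, block, each library left out, doublets, hemoglobin, the limits of the rule and depth.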

Additional observations from a re-analysis of the deposited data

Results flagged for a closer look

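Genes whose response to the genotype differed between the members and other cells by a test of the difference were set aside for a closer look. Differences are log2, cKO against cHet in the members minus the same contrast in the other cells, by the default edgeR estimate, and a value fitted against a library at 0 depends on the prior count. The first 6 per test and the genes called by the gene-wise estimate are given.

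Against arterial-like endothelium, *Tbx20* (difference 3.259), *Gata4* (2.724), *Has2* (3.432), *Pdlim3* (2.97) and *Adgrg6* (2.933) had the more positive response in the members. In the members themselves, the log2 fold change was negative in Rep1 and positive in Rep2 for 4 of the 5, with -3.65 and 1.36 for *Tbx20*, -0.45 and 1.34 for *Gata4*, -1.64 and 1.37 for *Has2*, and -2.22 and 2.58 for *Pdlim3*, so that in Rep1 a lower value in the members stood beside a still lower one in arterial-like cells. *Adgrg6* was positive in both replicates. In the members *Tbx20* had 19, 0, 100 and 282 UMIs in the 4 libraries (cHet then cKO of Rep1, then cHet then cKO of Rep2). In the arterial-like cells of cKO Rep1, a sum over 17 cells, *Tbx20*, *Gata4*, *Has2* and *Dcc* were at 0, and *Pdlim3*, *Adgrg6*, *Slc1a3* and *Nts* were at 2.04 CPM, the value of 1 UMI. *Pdlim3*, which encodes an actin-binding protein of muscle, differed by 0.40 in Rep1 and 2.98 in Rep2. *Dcc* (4.296), *Slc1a3* (4.021), which encodes a glutamate transporter, and *Nts* (2.434), which encodes neurotensin, also had the more positive response. In the members *Slc1a3* and *Nts* had opposite signs in the replicates (-1.20 and 0.90, and -0.18 and 0.70). *Dcc* had 209 of its 253 UMIs in cKO Rep1 in 1 cell. *Gm42418* (0.622), a transcript that overlaps ribosomal RNA sequence, differed by 1.32 in Rep1 and 0.08 in Rep2, and its count in the members was 5946 and 6562 UMIs in Rep1 and 78879 and 69638 in Rep2. The gene-wise estimate called *Pdlim3*, *Tbx20*, *Adgrg6*, *Nts*, *Slc1a3*, *Has2* and *Dcc*, but neither *Gata4* nor *Gm42418*.

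Against cells with none of the endothelial genes, the muscle genes *Actc1* (2.251), *Acta2* (2.443) and *Myl7* (1.802) had the more positive response. Their signs differed between replicates or were near 0 in Rep1, with -0.70 and 2.89 for *Actc1*, -2.37 and 3.43 for *Acta2*, and 0.00 and 2.72 for *Myl7*. In cKO Rep2, 1 cell held 289 of the 317 UMIs of *Actc1*, and the highest cell held 209 of 235 for *Acta2* and 151 of 166 for *Myl7*. Without the highest cell of each gene, the levels there were 4.21 CPM for *Actc1*, 3.91 for *Acta2* and 2.25 for *Myl7*. *Dach1* (0.68) had the more positive response in both replicates, by 0.81 and 0.57. *Gpc6* (-0.534) and *Sulf1* (-1.125), which encode a glypican and a heparan sulfate sulfatase, had the more negative response, by -0.98 and -0.08 for *Gpc6* and by -1.82 and -0.50 for *Sulf1*. Both were far more abundant in cells without endothelial genes, *Sulf1* at 236 to 272 TMM-scaled CPM against 16.1 to 49.1 in the members. None of these 6 was called by the gene-wise estimate. The part of single cells and of other cell types in these differences was not tested.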

How the results depend on the processing

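No member held over 5% hemoglobin UMIs, so leaving out hemoglobin-rich cells removed no member. The count of genes called between cKO and cHet, 0 by the edgeR fit, was also 0 with RLE scaling, with 5 of 7 endothelial genes and at equal depth. It was 0 as well without the replicate block (30 genes at an unadjusted p below 0.05) and with each library left out (0 to 0), but the fit without the block also recovered none of the planted changes in simulated data, and the fits with a library left out have neither the block nor more than 3 libraries, so these counts say nothing about stability. It was 1 with DESeq2 and with at most 1 arterial gene, 5 with a limit of 1000 genes, 18 with at most 5% mitochondrial UMIs, 20 without doublets and 138 with all genes of at least 1 count, where the prior degrees of freedom went from 6.76 to 496. Of 2 alternatives chosen after the data were seen, edgeR's fit with its legacy setting off (the gene-wise quasi-dispersion) gave 4 (*Pdlim3*, *Actc1*, *Dach1*, *Acta2*). Leaving out members with markers of other cell types gave 34. The main fit also moderated a spread per gene, with prior degrees of freedom of 6.76 against 7.23 with the legacy setting off. They were 12.3 with at most 5% mitochondrial UMIs, 14.5 without doublets and 39.9 without members holding other cell types' markers. The cause of these moves in the count was not tested. With a library left out, no block could be kept, so those values also hold the difference between replicates, and a lone library is assumed to vary like the other genotype. The difference in response from arterial-like cells gave 39 to 53 genes with RLE scaling, all genes of at least 1 count or no doublets and 7 by the gene-wise estimate. From cells without endothelial genes it gave 133 to 166 under the same alternatives, and 0 (0.0%) by that estimate.

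The mean difference in the share of members ran from -1.172 to -0.114 percentage points with a library left out, and its sign was kept in every setting run. The replicates still went in opposite directions. Within Rep2 the cKO share was the higher one under each limit tried, by 0.124 to 0.208 points. The share with 3 endocardial markers, 1.33 points higher in cKO, reversed to -1.354 without thinning and to -2.094 with 2 markers, and ran from -0.881 to 3.551 with a library left out.

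For 60 named genes, 952 of 1007 values under an alternative kept the sign. Apart from *Kmt2d* and *Tbx1*, these genes were chosen for equal sign in both replicates. The alternatives refit the same libraries, and leaving out hemoglobin-rich cells removed no member. The count therefore does not measure stability. Log2 values of the other sign were, without members holding other cell types' markers, *Kmt2d* 0.018, *Cdh11* 0.122, *Dcc* -1.18, *Tmem132c* 0.23 and *Tagln* -0.075. At equal depth they were *Tbx1* 0.009, *Robo4* -0.452 and *Tagln* -0.384, with 1000 genes *Ldhb* -0.112, *Hbb-y* -0.232 and *Tagln* -0.196, and without doublets *Tagln* -0.313. With a library left out, these genes changed sign and ranged as follows: *Angpt2* -0.712 to 0.124, *Apoe* -1.131 to 0.333, *Bmp4* -0.496 to 0.939, *Ccne2* -0.096 to 0.232, *Cdca8* -0.336 to 0.194, *Cdh11* -0.829 to 0.061, *Dcc* -0.514 to 2.961, *Dusp1* -0.377 to 0.309, *Gngt2* -1.158 to 0.803, *Klf2* -0.54 to 0.113, *Kmt2b* -0.069 to 0.579, *Kmt2d* -0.438 to 0.014, *Ldhb* -0.375 to 1.086, *Lmo2* -0.061 to 0.512, *Ndufa1* -1.238 to 1.729, *Nid2* -0.15 to 0.73, *Notch1* -0.263 to 0.452, *Npr3* -0.391 to 0.272, *Prrx2* -1.634 to 0.094, *Robo4* -0.072 to 0.702, *Rpl38* -2.139 to 2.607, *Sdhc* -0.487 to 0.248, *Sema3c* -1.702 to 0.319, *Sema3g* -0.553 to 0.114, *Tbx1* -0.488 to 0.383 and *Wnt5a* -0.975 to 0.582. Of the other 34 named genes, which kept their sign with each library left out, 25 moved by over 1.5 times, *Igfbp3* from 0.055 to 0.857, *Stab2* from 0.24 to 0.946, *Plcl1* from 0.655 to 1.558, *Zfp704* from 0.214 to 0.761, *Adgrg6* from 0.62 to 2.111, *Bmpr1a* from -0.862 to -0.031, *Cdh2* from 0.132 to 0.695, *Twist1* from -0.716 to -0.282 and *Zfp36* from 0.421 to 1.585 among them.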

Other observations

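Lists not described above had these values in the members. Of 8 hemogenic genes tested, 3 were higher in cKO in both replicates and none lower, with a median log2 fold change of 0.10, and the highest value was that of *Lmo2*, which encodes a blood and vessel cofactor (0.20 ± 0.08, edgeR adjusted p = 0.893). Of 7 endothelial progenitor genes, 4 were higher in both replicates and none lower (median 0.03). The 26 endothelial genes outside the rule had 11 higher and 7 lower (median 0.03), with the Roundabout gene *Robo4* at 0.25 ± 0.20 (adjusted p = 0.908) and *Gngt2* at -0.24 ± 0.10 (adjusted p = 0.893). With a library left out, in fits without the block, *Lmo2* ran from -0.061 to 0.512, *Robo4* from -0.072 to 0.702 and *Gngt2* from -1.158 to 0.803. At equal depth *Robo4* was at -0.452. Of 5 lymphatic genes tested, 2 were lower in both replicates and none higher (median -0.09). Of 13 immediate early genes, 2 were higher and 2 lower (median 0.07), and *Zfp36* had 12, 17, 23 and 66 UMIs in cHet and cKO of Rep1 and cHet and cKO of Rep2 (1.15 ± 0.32, adjusted p = 0.782), with a log2 fold change of 0.421 without cKO Rep2. Heart field genes had 1 higher and 2 lower of 6 (median -0.25). Mural cell genes had 1 higher and 2 lower of 4. For epithelium 1 gene and for macrophages 3 genes had enough counts to test.

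The fit without members holding other cell types' markers called 34 genes, of which 33 had the same sign in both replicates in the main fit. The 20 genes called without doublets and the 18 called with at most 5% mitochondrial UMIs all had the same sign in both replicates there. They held 10 and 12 of the 12 genes of smallest p, which were themselves chosen for equal sign in both replicates. These overlaps are between fits of the same libraries.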
